A study of Rattus norvegicus with 16 samples.

Results

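The comparison of cross-fostered pups exposed to a contaminant mixture (MM) with cross-fostered control pups (CC) was made on 4 arrays of each group, 8 of the 16 liver arrays at hand, chosen by their titles. All were of male Sprague-Dawley rats aged 21 days, and each array held RNA pooled from 2 pups of 1 treatment group. MM pups were born to dams given organochlorine pesticides, polychlorinated biphenyls and methylmercury in corn oil at a total of 1.0 mg per kg per day over gestation and lactation, and were moved at birth to nurse on other dams given the same mixture, so that they were exposed before birth and through milk. CC pups were born to and nursed by dams that were given corn oil only, and were moved at birth in the same way, so handling at birth was shared by both groups. The other 8 arrays were of pups left with their own mothers, with corn oil (C) or the mixture (M), and enter here through the shared estimate of spread and a closing comparison. Pools were the replicates. The labels do not tie a pool to a litter, so p-values measure the spread between pools, which may come from the same litter.

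Polychlorinated biphenyls and related organochlorines reach the liver and bind or activate nuclear receptors that control drug metabolism. The aryl hydrocarbon receptor (AhR) binds planar compounds and drives Cyp1 family genes through a short DNA core, the constitutive androstane receptor (CAR) drives Cyp2b genes after phenobarbital-type activation, and the pregnane X receptor (PXR) drives Cyp3a genes. Electrophiles release the factor Nrf2, which drives glutathione and quinone-reducing enzymes. Their targets oxidise foreign compounds, attach glutathione, glucuronic acid or sulfate to them, and export the products into bile or blood.

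Each array carried liver RNA in Cy5 and a universal rat reference RNA, made from rat cell lines, in Cy3, and a gene's value is the log2 ratio of Cy5 over Cy3. Of 12639 genes or identifiers tested, limma called 2469 between MM and CC at an adjusted p below 0.05, or 19.5%. Of these, 973 were higher in MM (7.7% of all tested) and 1496 lower (11.8%). The control groups CC and C were on slide 1 and the mixture groups MM and M on slide 2, and an effect of slide and one of mixture cannot be told apart. The reference RNA holds no pup RNA, yet 66.1% of genes were called between the slides in Cy3 alone. Whether the Cy3 signal is free of signal from the liver RNA was not tested, so a Cy3 difference need not be one of slide alone. The Cy5 channel alone called 319 genes (2.52%), and 156 (1.23%) were called in the same direction by both, 136 higher (1.08%) and 20 lower (0.158%). Each channel alone was scaled between arrays by quantiles and the ratio by loess, so a ratio difference need not equal the Cy5 less the Cy3 difference. A Cy5 difference is itself not free of the slide, and both are given below. The split of the ratio calls depends on the scaling: 39.4% were higher here, 52.4% with the authors' deposited series table, 28.9% from the log ratio of the scanner software and 19.8% with median centring, which put the median of all genes at -0.18 against -0.05 here.

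The liver label was checked against hepatocyte markers, all 12 of which were well above background on all 8 arrays, with a mean log2 Cy5 level of 14.17 to 14.32 in CC and 14.13 to 14.35 in MM. CC 1 and CC 2 stood apart. On them 30 and 30 of 33 skeletal muscle markers were well above background, at a mean log2 Cy5 level of 9.15 and 9.09, against 9 to 12 markers and levels of 6.39 to 6.43 on the other 6 arrays. Exocrine pancreas markers averaged 7.55 on CC 1, 8.44 on CC 2 and 7.36 on MM 1, and 6.21 to 6.48 on the other 5 (of 25 on the array, Klk1 and Gp2 were never well above background). CC 1 also had the highest adipose level, 8.05 with 13 of 15 markers well above background, against 7.35 to 7.50 elsewhere, and the highest cholangiocyte level, 6.92 against 6.47 to 6.61. Stellate cell and fibroblast markers were at 8.82 on CC 1, 8.61 on CC 2 and 8.31 to 8.39 on the other 6. CC 1 had the highest leukocyte level too, 9.30 against 8.69 to 9.05, and the highest level of hepatocyte markers in its reference channel, 10.64 against 9.57 to 9.81 in log2 Cy3, the denominator of its ratios. Albumin (Alb) had ratios of 7.13, 8.93, 8.88 and 8.87 on CC 1 to CC 4, a Cy3 level of 11.63 on CC 1 and Cy3 levels of 9.95 to 10.37 elsewhere. The mean log2 Cy3 level of muscle markers was 8.17 on CC 1 and 8.09 on CC 2, against 7.98 to 8.04 elsewhere. That of exocrine pancreas markers was 6.54 on CC 1, 6.60 on CC 2 and 6.55 on MM 1, against 6.45 to 6.51 elsewhere. The reference signal was thus highest on the arrays where these markers were high in Cy5, and the cause was not tested. In pooled tissue, fewer cells of a type and less RNA per cell cannot be told apart. Results for all genes, and for many of the lists and named genes below, are therefore given with and without CC 1 and CC 2. Without them 1480 genes were called (11.7%), 5.33% of all higher and 6.38% lower, and 1310 of the 2469 kept their call and direction. Of the 156 genes called in ratio and Cy5, 106 stayed called in the ratio and 49 in both. The shares of all genes called in both without these arrays were 0.388% higher and 0.0396% lower. Without CC 2 alone, 101 genes were called in both.

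**Figure D1:**
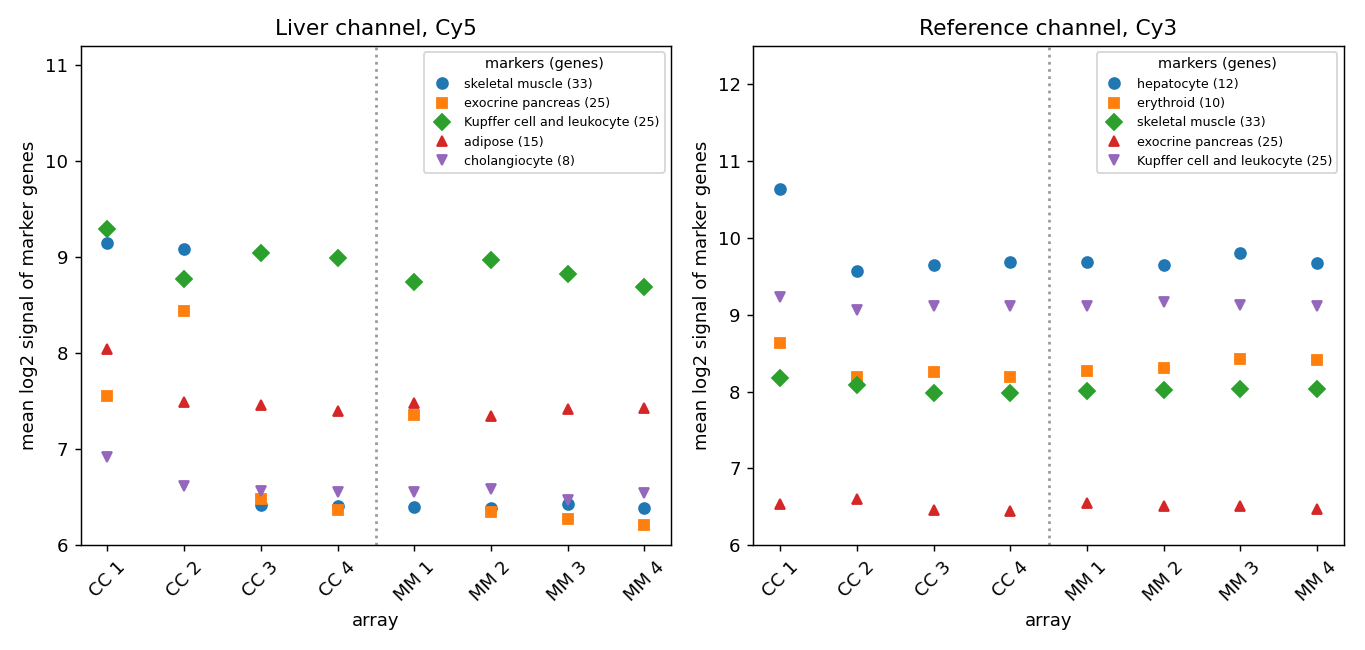
Mean log2 signal of marker genes on each CC and MM array, in the liver channel (left) and the reference channel (right); numbers in the key count the genes averaged and the dotted line divides the groups. Skeletal muscle stands at 9.15 and 9.09 on CC 1 and CC 2 and at or below 6.43 elsewhere, and the hepatocyte level of the reference stands out on CC 1.

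The AhR list held the largest rise of the comparison. Of 11 genes listed, 10 had a named probe and 8 were bright enough to test. Of these, 4 rose and 0 fell, against 7.7% of all genes called higher, with a list median of 0.60 beside -0.05 over all genes. Cy5 alone gave the same call for all 4, and so did the ratio without CC 1 and CC 2. Of all genes, 1.08% were called higher in both ratio and Cy5. The repressor gene Ahrr and the AhR partner Arnt were too dim to test.

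The core that the AhR and Arnt bind together is GCGTG. It was searched on both strands of the RefSeq promoters of the GRCr8 assembly, each of 300 bases from 250 before to 50 after a gene's start, and 29.7% of all 33469 such promoters held it. Of the 4 AhR targets that rose, 3 matched a promoter by symbol and 3 held the core. They are shown as the matched promoters of AhR targets that rose, Cyp1a1 being the unmatched one, beside that of Ceacam4, the named gene with the smallest p, with the core on either strand in capitals. They lie at chr6:21094315-21094614 on the plus strand, chr19:52220218-52220517 on the minus strand, chr9:96194768-96195067 on the plus strand and chr1:89504305-89504604 on the plus strand, in the order printed.
Cyp1b1: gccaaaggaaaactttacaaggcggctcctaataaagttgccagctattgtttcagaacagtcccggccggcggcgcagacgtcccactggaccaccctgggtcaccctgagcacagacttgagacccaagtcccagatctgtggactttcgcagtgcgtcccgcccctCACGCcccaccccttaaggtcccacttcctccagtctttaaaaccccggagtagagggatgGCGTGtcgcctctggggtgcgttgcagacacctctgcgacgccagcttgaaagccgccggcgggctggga
Nqo1: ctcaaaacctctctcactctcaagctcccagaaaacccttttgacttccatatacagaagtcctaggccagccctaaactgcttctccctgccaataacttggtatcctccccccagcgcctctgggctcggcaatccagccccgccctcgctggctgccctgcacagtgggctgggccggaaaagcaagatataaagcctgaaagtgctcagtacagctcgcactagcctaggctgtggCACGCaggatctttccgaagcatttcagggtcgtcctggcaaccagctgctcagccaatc
Ugt1a6: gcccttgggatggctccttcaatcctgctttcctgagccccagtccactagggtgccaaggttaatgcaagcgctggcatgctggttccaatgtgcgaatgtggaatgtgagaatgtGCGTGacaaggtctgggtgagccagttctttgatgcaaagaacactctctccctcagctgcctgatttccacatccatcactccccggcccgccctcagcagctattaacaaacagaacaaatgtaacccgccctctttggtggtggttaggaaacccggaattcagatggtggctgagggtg
Ceacam4: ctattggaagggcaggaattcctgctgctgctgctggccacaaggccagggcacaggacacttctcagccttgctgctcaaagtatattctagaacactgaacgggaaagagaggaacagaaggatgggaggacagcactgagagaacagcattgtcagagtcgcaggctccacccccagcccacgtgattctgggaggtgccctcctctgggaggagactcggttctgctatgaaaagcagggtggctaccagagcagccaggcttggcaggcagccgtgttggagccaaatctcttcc

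Relative to the gene's start, the matches began at -81 and -20 in Cyp1b1, at -10 in Nqo1 and at -133 in Ugt1a6, counted from the first base of the match as printed. Ceacam4 held no match in its window. Of the other promoters searched, that of Cyp1a2 held 0, those of Cyp2b2 and Tsku 1 each and that of Por 3. A match describes the sequence and no binding was measured here.

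Cyp1a1, the classic AhR target and a monooxygenase of aromatic hydrocarbons, had log2 ratios of 1.47, 1.38, 1.26 and 1.72 on CC 1 to CC 4 and of 6.92, 7.01, 6.82 and 6.43 on MM 1 to MM 4. All 4 MM arrays lay above all 4 CC arrays, as did 21.6% of all genes in one direction or the other. The difference was 5.34 ± 0.27 (SE, n = 4 arrays per group here and throughout), or 40.5-fold, with a limma adjusted p of 2.77e-09. In Cy5 the signals were 6.90, 6.84, 6.83 and 7.17 in CC and 11.36, 11.35, 11.46 and 10.93 in MM, a rise of 4.34, while Cy3 moved by 0.05. The rise was 5.31 without CC 1 and CC 2.

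Cyp1b1, a second AhR-driven monooxygenase that is low in unexposed liver, stood at -1.01, -0.91, -0.82 and -0.90 in CC and 0.58, 1.22, 0.93 and 0.60 in MM, again without overlap. It rose by 1.74 ± 0.12 (adjusted p = 2.10e-07). Its Cy5 signal was not well above background on any CC array, which makes the rise at least 1.96-fold. The bound sets the mean Cy5 of the 4 MM arrays against the higher, on each CC array, of the dimmest signal well above background and the probe's own. It was computed with loess and Aquantile scaling and with quantile scaling of Cy5, and the lower of both is given here and for the other genes with a bound. Cyp1b1 in Cy5 alone rose by 1.05, and its Cy3 signal differed by -0.48 on slide 2.

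Nqo1, a quinone reductase driven by both AhR and Nrf2, went from -1.14, -1.01, -0.75 and -0.90 in CC to 0.44, 0.22, 0.72 and 0.51 in MM, a rise of 1.42 ± 0.18 or 2.68-fold (adjusted p = 5.56e-05), and rose by 1.31 in Cy5. The glucuronosyltransferase Ugt1a6 went from 3.21, 3.46, 3.15 and 3.05 to 4.52, 4.47, 3.76 and 3.96, a rise of 0.96 ± 0.18 (adjusted p = 0.00161), with 0.78 in Cy5 and 1.37 at its second probe. MM 1 and MM 2 were higher than MM 3 and MM 4, and no MM array reached into the CC range. Probes of Ugt1a6 may also read other Ugt1a transcripts, which share exons.

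The other 4 AhR genes tested had no call in the ratio. The receptor Ahr itself was at 0.21 ± 0.13 (adjusted p = 0.282), Cyp2s1 at 0.24 ± 0.083 (0.0504) and the aldehyde dehydrogenase Aldh3a1 at -0.09 ± 0.16 (0.736). Cyp1a2, the constitutive hepatic member of the Cyp1 family and usually induced with Cyp1a1, had ratios of 5.00, 5.47, 5.59 and 5.52 in CC and 5.38, 5.37, 5.69 and 5.66 in MM. The ratio difference was 0.13 ± 0.12 (adjusted p = 0.487), with overlapping groups. Both channels of its probe were far brighter on slide 2, Cy5 by 2.49 (adjusted p = 3.44e-08) and the reference by 2.36, so that the ratio and the Cy5 signal of Cyp1a2 differ in their answer. Its reference signals were 8.80, 8.26, 8.43 and 8.60 on the CC arrays and 10.81, 10.98, 10.98 and 10.74 on the MM arrays. The CAR-list genes Cyp2c6v1 and Cyp2a1 had the same pattern, with Cy5 differences of 2.02 and 1.12, Cy3 differences of 1.68 and 0.77, and ratio differences of 0.25 ± 0.18 and 0.31 ± 0.16 without a call. What moved the reference signal of these probes between the slides was not tested.

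**Figure D2:**
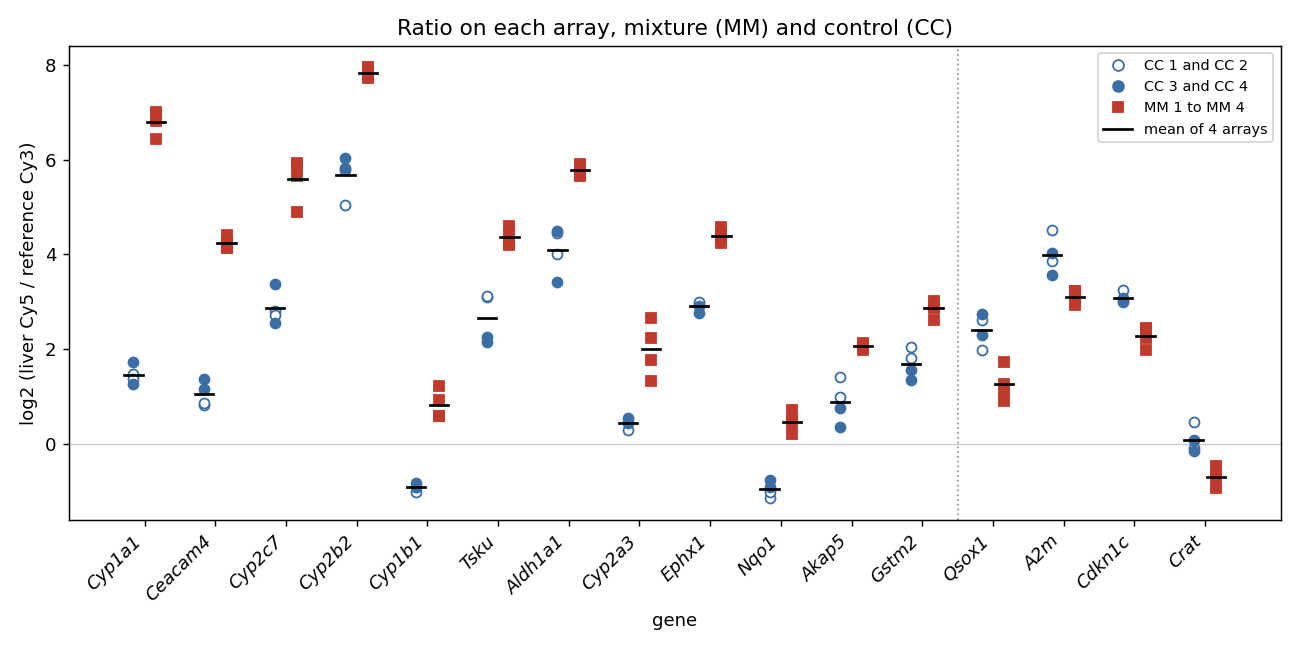
Log2 ratio of liver Cy5 over reference Cy3 on each array for 12 genes that rose and, right of the dotted line, 4 that fell; circles are CC (open for CC 1 and CC 2), squares MM and bars the mean of 4 arrays. The MM and CC arrays do not overlap for any gene drawn, which was a condition of the choice of these genes. Cyp1a1 has the widest gap, 6.43 to 7.01 against 1.26 to 1.72.

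Of 19 CAR targets listed, 16 were tested. Of these 9 rose, 0 fell and 7 had no call, against 7.7% of all genes called higher, with a median of 0.58 beside -0.05 over all genes. All but Por of the 9 were also called higher in Cy5 alone, where 1.08% of all genes were called higher in both. In the ratio without CC 1 and CC 2, 9 were called higher, with a median of 0.59. With a filter for brightness on all 8 arrays, which left out Cyp2a3 and Abcc3, 7 were called higher. Cyp2b1, Aldh1a7 and Ugt1a1 had no named probe. This list was drawn up with knowledge of earlier results on these arrays, so its direction is not independent evidence.

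Cyp2b2, the phenobarbital-type P450 of rat liver, stood at 5.03, 5.79, 6.03 and 5.82 in CC and 7.73, 7.86, 7.94 and 7.81 in MM. The 4 MM arrays lay within a narrow range and CC 1 was the lowest CC array. The rise was 2.17 ± 0.20 or 4.49-fold (adjusted p = 4.60e-06), 1.91 without CC 1 and CC 2, 1.39 at a second probe, and 2.85 in Cy5 beside 0.65 in Cy3. Its near-identical paralog Cyp2b1 may contribute to these probes. Cyp2b3, a relative not known for induction, had a difference of 0.03 ± 0.15.

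Cyp2c7, a retinoid-metabolising P450 whose expression differs between the sexes in adult liver, stood at 2.81, 2.73, 3.37 and 2.56 in CC and 5.86, 5.66, 4.89 and 5.93 in MM, with MM 3 the lowest of its group. It rose by 2.72 ± 0.27, 6.58-fold (adjusted p = 7.76e-06). Its other 2 kept probes gave 3.39 and 3.70, and Cy5 alone 3.78 beside a reference shift of 1.09. The microsomal epoxide hydrolase Ephx1, which opens the epoxides that P450 enzymes form, went from 2.95, 2.99, 2.90 and 2.77 to 4.58, 4.32, 4.24 and 4.44. That rise of 1.49 ± 0.17 (2.81-fold, adjusted p = 2.90e-05) was 1.20 in Cy5 and 1.56 without CC 1 and CC 2.

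Aldh1a1, a retinal and aldehyde dehydrogenase, was at 4.01, 4.45, 3.41 and 4.49 in CC, where CC 3 was lowest, and at 5.91, 5.87, 5.66 and 5.68 in MM. It rose by 1.69 ± 0.26 (adjusted p = 0.000434) and by 1.82 in Cy5. The hydroxylase Cyp2a3 was near the detection limit in CC, 0.30, 0.47, 0.43 and 0.55, and spread widely in MM, 1.32, 2.65, 1.78 and 2.23. It was well above background on 1 of 4 CC arrays and on all 4 MM arrays. Its rise was 1.56 ± 0.28 (adjusted p = 0.00128), and the size depends on the processing: 1.07 in Cy5, 1.04 with median centring and 4.11 from the scanner software's log ratio, each called. Smaller rises were those of the P450 electron donor Por at 0.97 ± 0.15, the glucuronosyltransferase Ugt2b1 at 0.91 ± 0.20, the basolateral exporter Abcc3 at 0.60 ± 0.11 and the glutathione transferase Gstm1 at 0.57 ± 0.14, with adjusted p of 0.000377, 0.00551, 0.00186 and 0.00835. Por was called in the ratio only, at 0.58 in Cy5 (adjusted p = 0.124) beside -0.41 in Cy3. Abcc3 was dim in CC, at 6.09 to 6.38 in Cy5, and its rise ran from 0.35 to 1.84 over the alternative fits, with a call in 23 of 24.

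The receptor gene Nr1i3, which encodes CAR, was at 0.30 ± 0.29 without a call (adjusted p = 0.517), and its arrays overlapped, 3.02 to 3.98 in CC and 2.96 to 4.39 in MM. Alas1, the first enzyme of heme synthesis, was at 0.53 ± 0.23 (0.121). Gadd45b was at -0.24 ± 0.095 (0.0874). Gsta2, which is on this list too, was at 0.47 ± 0.38 (0.411), and the value rests on CC 1: its ratios were 5.72, 8.09, 8.08 and 7.97 in CC, its reference level was 10.22 on CC 1 and 7.88 to 8.62 elsewhere, and without CC 1 and CC 2 the difference was -0.09.

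Of 14 PXR targets listed, 12 were tested and 4 rose, against 7.7% of all genes, with none called lower and a median of 0.26, or 0.11 without CC 1 and CC 2, where 4 rose. Within array row 1 (2 arrays of each group) 2 were called and within row 2 0. Cyp3a9 and Abcb1a were too dim to test.

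The canalicular exporter Abcc2, which moves conjugates into bile, stood at 4.05, 4.31, 4.46 and 4.21 in CC and 4.68, 4.90, 4.69 and 5.02 in MM, a rise of 0.56 ± 0.11 (adjusted p = 0.00241) with 0.80 in Cy5. Cyp3a23-3a1, the inducible Cyp3a gene of rat liver, was at 6.85, 7.45, 7.67 and 7.42 and 8.41, 8.24, 7.67 and 8.29. MM 3 reached the highest CC array, so the groups met, and the rise was 0.80 ± 0.17 (adjusted p = 0.00455), 0.60 without CC 1 and CC 2, and 0.35 without a call from the scanner software's log ratio (adjusted p = 0.559). Cyp3a62 rose by 0.97 ± 0.26 (0.0144), also with MM 3 inside the CC range. These 3 genes were called higher in Cy5 as well. The carboxylesterase Ces2h rose by 0.38 ± 0.11 in the ratio (0.0264), and without CC 3, CC 4, MM 2 or MM 4 it had no call, at 0.31 to 0.38 (adjusted p = 0.0533 to 0.0863).

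The other 8 PXR genes had no call. Cyp3a18 had the lowest difference, -0.89 ± 0.34 (adjusted p = 0.0768), with 5.05 to 6.01 in CC and 3.91 to 5.08 in MM, and -0.55 without CC 1 and CC 2. Cyp3a2, the male-typical Cyp3a gene, was at 0.37 ± 0.21, Ces2c at 0.40 ± 0.15, the sulfotransferase Sult2a1 at 0.16 ± 0.17, the uptake transporter Slco1a4 at -0.11 ± 0.16, the efflux pump Abcb1b at 0.02 ± 0.12 and Aldh1l1 at 0.06 ± 0.21. Nr1i2, which encodes PXR, was at -0.06 ± 0.13. The CAR and PXR lists are not fully separate in the cell, since both receptors act on many of the same promoters.

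Ceacam4, an adhesion molecule of the carcinoembryonic antigen family, had the smallest p among genes with a symbol. It stood at 0.83, 0.86, 1.38 and 1.17 in CC and 4.13, 4.28, 4.13 and 4.42 in MM, a gap many times the spread within either group. The rise was 3.18 ± 0.12, 9.08-fold (adjusted p = 4.82e-11), with 3.14 in Cy5, 0.35 in Cy3 and 2.97 without CC 1 and CC 2. Of the other 3 family members tested, none was called.

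Tsku, which encodes the secreted leucine-rich protein tsukushi, was at 3.09, 3.13, 2.16 and 2.26 in CC. There CC 1 and CC 2 lay in array row 1 and CC 3 and CC 4 in row 2. Row and the muscle and pancreas transcripts of CC 1 and CC 2 thus cannot be told apart in CC. The MM arrays of Tsku, 4.42, 4.19, 4.60 and 4.24, all lay above the CC arrays. It rose by 1.70 ± 0.26, 3.25-fold (adjusted p = 0.000343), by 1.19 within row 1 and 2.21 within row 2. The kinase anchor gene Akap5 was at 1.00, 1.40, 0.36 and 0.76 in CC and 2.04, 2.14, 2.10 and 1.98 in MM, a rise of 1.18 ± 0.22 (0.00166). The carboxylesterase Ces2j rose by 1.04 ± 0.19 (0.00153), but the scanner software's log ratio put it at 0.02 (adjusted p = 0.972), and within array row 1 it was at 1.02 without a call (0.0859). The potassium channel gene Kcnq3, well above background on no CC array and on 3 of 4 MM arrays, rose by 0.97 ± 0.16 or at least 1.57-fold (0.000718). A call in Cy5 too and arrays without overlap were conditions by which these genes were chosen.

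Genes whose liver expression differs between the sexes under growth hormone gave 3 rises among 14 tested, against 7.7% of all genes, with a median of 0.13: Cyp2c7, Cyp2c11 and Rup2. A filter for brightness on all 8 arrays would leave out Cyp2c11 and Rup2. A gene bright in a single group could pass the filter used here, so the count is a description. Cyp2c11, the male-specific steroid hydroxylase that appears at puberty, was low at this age, at 0.62, 0.22, 0.15 and 0.42 in CC and 1.83, 0.92, 0.99 and 1.54 in MM, and rose by 0.97 ± 0.21 (adjusted p = 0.00443). Its Cy5 signal was dim in CC, at 6.21 to 6.50. The size of the Cyp2c11 rise ran from 0.65 to 2.85 over the alternative fits, with a call in 23 of 24. Rup2, annotated as a rat urinary protein, was at 0.01, 0.51, 0.11 and 0.16 in CC and at 4.86, 0.38, 2.73 and 6.10 in MM. Its MM pools thus ran from the CC level on MM 2 to 6.10 on MM 4, so the groups overlapped. The difference was 3.32 ± 0.81 (adjusted p = 0.00946), at least 5.19-fold, as it was well above background on no CC array and on 3 of 4 MM arrays. It was 2.49 in Cy5, and without CC 1 and CC 2 it was 3.38 with an adjusted p of 0.0523.

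Of 21 glutathione transferases tested, 8 rose and 1 fell, against 7.7% and 11.8% of all genes, with a median of 0.16 in the ratio and 0.23 in Cy5. In both measures 6 were called higher, against 1.08% of all genes. Without CC 1 and CC 2, 5 rose in the ratio and the ratio median was 0.03. The ratios of Gsta1, Gsta2 and Gsta5 were lowest on CC 1, and that of Gstm2 was highest there among the CC arrays.

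Gstm2, a mu class transferase, led them, at 2.04, 1.81, 1.55 and 1.35 in CC and 2.95, 2.88, 2.62 and 3.01 in MM. Its rise was 1.17 ± 0.14, 2.26-fold (adjusted p = 4.04e-05), 1.28 in Cy5 and 1.41 without CC 1 and CC 2. Gsta1, an alpha class transferase, was at 3.62, 4.24, 4.23 and 4.36 and 4.74, 4.77, 4.81 and 4.87. It rose by 0.68 ± 0.14 (0.00264) and, without CC 1 and CC 2, by 0.50 (0.0161). Gsta5 rose by 0.75 ± 0.18 (0.00841), and without those arrays it was at 0.53 with no call (0.076). Gstm3, not well above background in CC, rose by 0.44 ± 0.10 or at least 1.24-fold. Close homology within each class means that a probe may read more than 1 gene.

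Of 16 glucuronosyltransferases, sulfotransferases and partners tested, 4 rose, against 7.7% of all genes, and none fell, with a median of 0.25, and 3 rose without CC 1 and CC 2. Besides Ugt1a6 and Ugt2b1 these were Ugdh, which makes the glucuronic acid donor, at 0.45 ± 0.092 (adjusted p = 0.00314), and Ugt2a3. The ratios of Ugt2a3 were scattered in both groups, 1.73, 1.75, 2.95 and 0.66 in CC and 3.19, 3.35, 2.74 and 4.44 in MM. Its difference of 1.66 ± 0.55 passed narrowly (0.0435), had no call in Cy5 (1.25, 0.0864) and none without CC 1, CC 2, CC 4, MM 1, MM 2 or MM 4, at 1.29 to 1.74 (adjusted p = 0.0612 to 0.132). MM 3 lay below CC 3.

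Among 24 Nrf2 targets tested, 8 rose and 2 fell in the ratio, against 7.7% and 11.8% of all genes, with a median of 0.18. Without CC 1 and CC 2, 9 rose and 0 fell in the ratio. In both measures 4 rose, against 1.08% of all genes. In Cy5 alone 4 were called higher. Those called in both were Gsr, Srxn1, Ephx1 and Nqo1. Glutathione reductase Gsr was at 0.01, -0.02, -0.01 and 0.00 in CC and 0.86, 0.98, 0.71 and 0.83 in MM and rose by 0.85 ± 0.081 (adjusted p = 5.35e-06). The reference differed by -0.65 and Cy5 rose by 0.28. Srxn1, the sulfiredoxin that repairs peroxiredoxins, was at -0.63, -0.72, -0.83 and -0.75 and 0.03, 0.03, 0.32 and -0.05, a rise of 0.81 ± 0.088 (1.66e-05) with 0.61 in Cy5.

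Other Nrf2 genes rose in the ratio without a call in Cy5. The autophagy receptor Sqstm1 rose by 0.62 ± 0.11 (adjusted p = 0.000957), with 0.15 in Cy5, -0.52 in Cy3 and 0.24 at a second probe. The heme oxygenase Hmox1 rose by 0.37 ± 0.08 (0.0046), but its Cy5 difference was -0.16 and its Cy3 difference -0.51. The core of the antioxidant response element, TGACNNNGC, stood in 12.1% of all promoters. Of 6 Nrf2 targets that rose and had a matched promoter, 1 held it, Ephx1, in entry 2 of its promoters and not in entry 1. Of 8 such glutathione transferases, 1 held it, Gsta1. The 12.1% counts promoters and the other shares count genes, so they are not of like units.

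Of 37 esterases, aldehyde and carbonyl enzymes tested, 8 rose and 2 fell (7 and 2 without CC 1 and CC 2), against 7.7% and 11.8% of all genes. Besides Ephx1, Aldh1a1 and Ces2h, they included the carboxylesterase Ces1f at 0.71 ± 0.11 (adjusted p = 0.000417) and the paraoxonase Pon3 at 0.48 ± 0.10 (0.00342), both called in Cy5. The mitochondrial aldehyde dehydrogenase Aldh1b1 fell by 0.36 on the log2 scale (0.0111), also in Cy5. The hydroxysteroid dehydrogenase Akr1c14 rose by 0.63 ± 0.10 (0.000626). Cytochrome b5, Cyb5a, which passes electrons to P450 enzymes and was picked after its values were seen, was at 4.39, 4.35, 4.45 and 4.34 in CC and 5.08, 5.05, 4.85 and 4.87 in MM, a rise of 0.58 ± 0.071 (5.47e-05) with 0.86 in Cy5. Across the 8 lists of oxidation, conjugation and defence genes, 28 of 143 tested genes (19.6%) rose in ratio and Cy5, where 1.08% of all genes did, and they made up 20.6% of the 136 genes that rose in both. Of those 136, 45 had no symbol. The 8 lists were chosen with earlier results of these data known, so their share is not independent evidence.

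**Figure D3:**
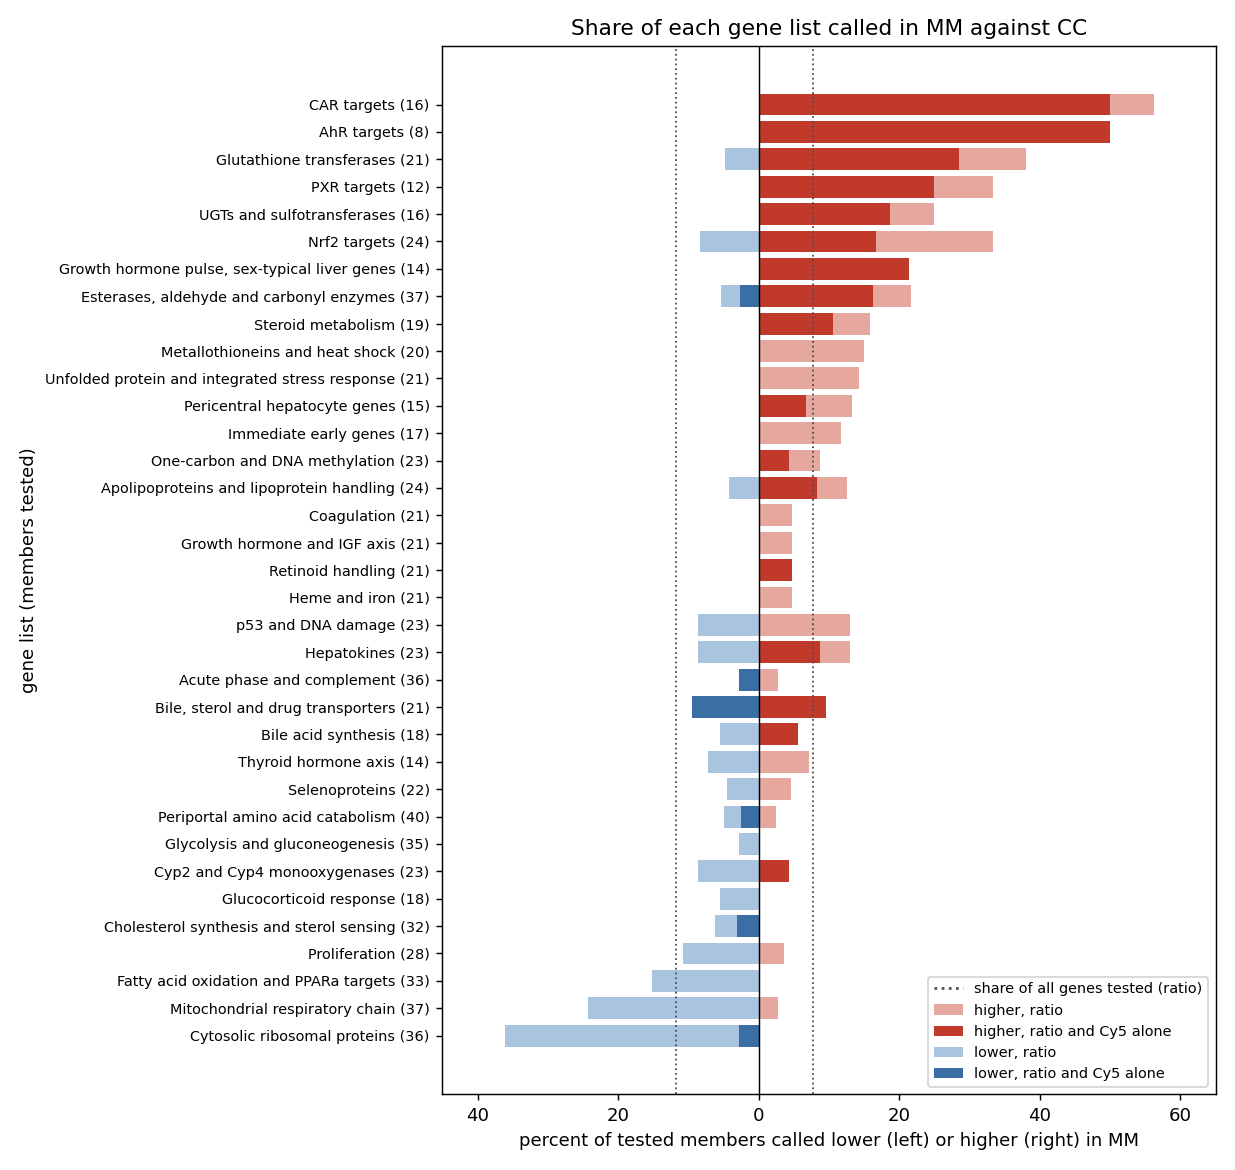
Share of the tested members of each gene list called higher (right) or lower (left) in MM, with the number tested in brackets. Pale bars are calls on the ratio and dark bars calls on ratio and Cy5 alone. Dotted lines at 7.7% and 11.8% are the shares of all genes called on the ratio. On both measures these shares were 1.08% and 0.158%. CAR and AhR targets have the longest bars to the right, and ribosomal protein genes the longest to the left, nearly all of it pale.

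Of 21 transporters tested, 2 rose and 2 fell in the ratio, shares near those of all genes called in the ratio (7.7% and 11.8%). All of them were called in Cy5 too, where 1.08% of all genes were called higher in both measures and 0.158% lower. The conjugate exporters Abcc2 and Abcc3 rose, and the efflux pump Abcg2 and the sterol exporter Abcg5 fell. Abcg2 was at 2.44, 2.28, 2.28 and 2.10 in CC and 1.88, 1.72, 1.33 and 1.23 in MM, a fall of 0.73 on the log2 scale (SE 0.14), or 1.66-fold (adjusted p = 0.00168). Abcg5 was at 5.87, 5.42, 5.11 and 4.91 and 4.15, 5.03, 4.04 and 4.24, where MM 2 lay within the CC range. Its difference was -0.96 ± 0.26 (0.0173) and -0.49 from the scanner software's log ratio, without a call, without CC 1 it was -0.78 with no call (0.0532), and without CC 1 and CC 2 -0.65 (0.184).

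Among genes called in ratio and Cy5, 20 fell and 136 rose, whereas the ratio alone called more falls than rises (1496 and 973). For the genes called in both, the median difference in the ratio was -0.64 for the falls and 0.48 for the rises. Of the 20 genes that fell in ratio and Cy5, 17 had a symbol. Qsox1, a secreted enzyme that forms disulfide bonds, had the largest fall, from 1.98, 2.61, 2.73 and 2.30 in CC to 1.27, 1.73, 1.11 and 0.91 in MM. Its difference was -1.15 ± 0.22, 2.22-fold lower (adjusted p = 0.00206), and -1.10 in Cy5, but a second, dimmer probe gave -0.15. A2m, a protease inhibitor of the rat acute phase, was at 3.86, 4.51, 3.57 and 4.03 in CC and 2.93, 3.23, 3.23 and 3.02 in MM. That difference was -0.89 ± 0.19 (0.0037), -0.74 at a second probe, -0.70 without CC 1 and CC 2 and -0.79 in Cy5.

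Cdkn1c, an imprinted inhibitor of the cell cycle, stood at 3.03, 3.24, 3.08 and 2.99 in CC and 2.23, 2.44, 1.98 and 2.45 in MM, a difference of -0.81 ± 0.12 (adjusted p = 0.000358) and -0.61 at its second probe. Crat, the carnitine acetyltransferase, stood at -0.07, 0.46, 0.09 and -0.15 and -0.47, -0.72, -0.92 and -0.65, a difference of -0.77 ± 0.14 (0.00127) with -0.83 in Cy5. The galectin gene Lgals2 fell to 2.06 to 2.41 from 2.88 to 3.09, a difference of -0.72 ± 0.10 (0.000184). The sodium pump subunit Atp1b1 was at -0.68 ± 0.12 (0.00146) and the adhesion gene Vcam1 at -0.44 ± 0.078 (0.00102). These 5 genes were chosen among those without overlapping arrays, and each kept its call without CC 1 and CC 2.

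Ins2, an insulin gene, fell by 0.67 on the log2 scale (0.00146 adjusted), from 1.15 to 1.45 to 0.40 to 0.98. Of 11 endocrine pancreas markers, 6 were never well above background, among them Gcg and Sst, and the mean log2 Cy5 level was 6.15 to 6.19 in CC and 6.08 to 6.14 in MM. The part of these cells in the fall of Ins2 was not tested. The stem cell marker Prom1 was at -0.60 ± 0.14, and at -0.29 at its second probe. The nucleic acid genes Trmt61a and Polr1c were at -0.38 ± 0.10 and -0.27 ± 0.064 and the nuclear receptor Esrra at -0.23 ± 0.075. The copine Cpne9 was at -0.48 ± 0.071, or at least 1.17-fold lower, as it was not well above background in MM. Prom1, Trmt61a, Polr1c and Esrra had no call without CC 1 and CC 2 (adjusted p = 0.0749, 0.0855, 0.0774 and 0.0506). Trmt61a also had none without CC 2 or MM 4, at -0.34 to -0.29 (adjusted p = 0.0586 to 0.0664), and Esrra had one only without CC 1, being at -0.24 to -0.20 (adjusted p = 0.0608 to 0.118) without any other array.

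Of 33 fatty acid oxidation genes, 5 fell in the ratio, a share near the 11.8% of all genes, and none in both measures, with a median of -0.08 beside -0.05 over all genes. They included Decr1 at -0.57 ± 0.13 (-0.10 in Cy5, 0.44 in Cy3), Ucp2 at -0.35 ± 0.086 (-0.05 in Cy5) and Cyp4a1, a fatty acid hydroxylase driven by PPARa. Cyp4a1 was at 5.00, 5.35, 5.65 and 5.16 in CC and 4.92, 4.85, 3.62 and 4.82 in MM, and MM 3 set much of its difference of -0.74 ± 0.22: without MM 3 it was -0.43, and without CC 2 or CC 3 it had no call, at -0.72 to -0.62 (adjusted p = 0.065 to 0.0873). Ucp2 and Cyp4a1 had no call without CC 1 and CC 2, at -0.29 (0.0767) and -0.85 (0.0627). Of 32 cholesterol genes, 2 fell, a smaller share than in all genes: Abcg5 and the sterol sensor partner Scap (-0.73 ± 0.12, -0.41 in Cy5 without a call).

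Of 15 pericentral hepatocyte genes, 2 rose, beside 7.7% of all genes, a count too small to read as a result about the list. Without CC 1 and CC 2, 2 were called higher and 2 lower. The ammonium transporter Rhbg rose by 0.56 ± 0.13 (adjusted p = 0.00555) and by 0.62 in Cy5, with overlapping arrays at 2.50 to 3.19 and 3.15 to 3.65. Gulo, the last enzyme of vitamin C synthesis in rat, rose by 0.62 ± 0.12 in the ratio, with -0.0041 in Cy5 and -0.59 in Cy3. Among apolipoprotein genes Apoa2 rose by 0.55 ± 0.14 in the ratio, but the scanner software's own ratio put it at -0.10. It had no call without CC 1 and CC 2 (0.0928), and its Cy5 and Cy3 signals differed by 1.90 and 1.25. The hepatokine gene Gdf15 rose by 0.68 ± 0.13 in the ratio, with -0.10 in Cy5 and -0.78 in Cy3.

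Ribosomal protein, respiratory chain and leukocyte genes had ratio calls that were mostly lower, and hardly any call in Cy5. Of 36 cytosolic ribosomal protein genes, 13 fell, against 11.8% of all genes, with a median of -0.21 in the ratio and -0.09 in Cy5, and Rplp0 was the only one called in both. The count was 2 without CC 1 and CC 2, 7 without CC 2, 7 without MM 1, 8 without MM 2, 6 without MM 4 and 2 with the authors' deposited series table. Rpl18 had ratios of 0.20, 0.10, -0.10 and -0.09 in CC and -0.40, -0.34, -0.45 and -0.48 in MM, without overlap. Its difference was -0.45 ± 0.088, that of Rps3 -0.33 ± 0.071 and that of Rplp0 -0.32 ± 0.077, with -0.09, -0.25 and -0.33 in Cy5 (adjusted p = 0.685, 0.107 and 0.0121). Rplp0 had no call in the ratio without CC 1 and CC 2 (-0.22, 0.119).

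Of 37 respiratory chain genes, 9 fell and 1 rose in the ratio, against 11.8% and 7.7% of all genes, with a median of -0.16. Without CC 1 and CC 2, 8 fell and 1 rose. In Cy5 the median was 0.000988 and no member was called. Examples were Ndufa2 at -0.31 ± 0.066, Ndufb3 at -0.40 ± 0.091 and Cox5b at -0.29 ± 0.065 (0.09 in Cy5), with the ATP synthase subunit Atp5f1b at 0.44 ± 0.082 (0.04 in Cy5, -0.42 in Cy3). Of 23 macrophage and leukocyte markers, 6 fell, against 11.8% of all genes, and none in Cy5, with a ratio median of -0.32. They included the Fc receptor chain Fcer1g at -0.58 ± 0.12, Tyrobp at -0.64 ± 0.14 and Coro1a. The count was 3 without CC 1, CC 3, MM 1 or MM 4, each in turn, and 4 without CC 1 and CC 2 together. The mean log2 Cy5 level of all 25 such markers on the array was 8.77 to 9.30 in CC and 8.69 to 8.97 in MM. Cd3e and Itgam were never well above background.

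Coro1a, an actin-binding gene of leukocytes, had ratios of 0.05, -1.53, -1.41 and -1.53 in CC and -2.23, -2.00, -2.55 and -2.36 in MM. CC 1 stood far above the other CC arrays. The difference was -1.18 ± 0.26 (adjusted p = 0.00518), -0.81 without CC 1 and CC 2 (0.00372), and -0.53 in Cy5 without a call beside 0.59 in Cy3.

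Some of the largest ratio rises had no counterpart in the liver channel. Kif1c, a kinesin motor gene, was at -1.33, -1.40, -1.38 and -1.16 in CC and 0.14, 0.53, -0.06 and 0.17 in MM, a ratio difference of 1.51 ± 0.11. In Cy5 Kif1c was lower in MM, at -0.85 (adjusted p = 0.000555), while the reference differed by -2.30. The G protein subunit gene Gnb2 likewise gave 1.42 ± 0.10 in the ratio, -0.54 in Cy5 and -1.93 in Cy3. For the splicing factor gene Prpf19 the same 3 differences were 1.45 ± 0.15, 0.05 and -1.67, for Marf1 1.27 ± 0.084, -0.18 and -1.41, and for the lipoprotein receptor gene Lrp1 1.12 ± 0.14, 0.04 and -1.09. Bax, a cell death gene, was the reverse, with -1.05 ± 0.06 in the ratio, 0.04 in Cy5 and 1.22 in Cy3. Gadd45a rose by 0.81 ± 0.16 in the ratio and was at 0.30 in Cy5. Of the genes called in the ratio, 802 had the opposite sign in Cy5, and 552 had a Cy3 difference of over 0.5 in size, as against 16 of the 156 called in both. Over the 12639 genes, which are not independent, the ratio difference correlated with the Cy3 difference at r = -0.58, as a description. The Cy3 signal is part of the ratio. The Cy5 difference correlated with the Cy3 difference at r = 0.33.

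**Figure D4:**
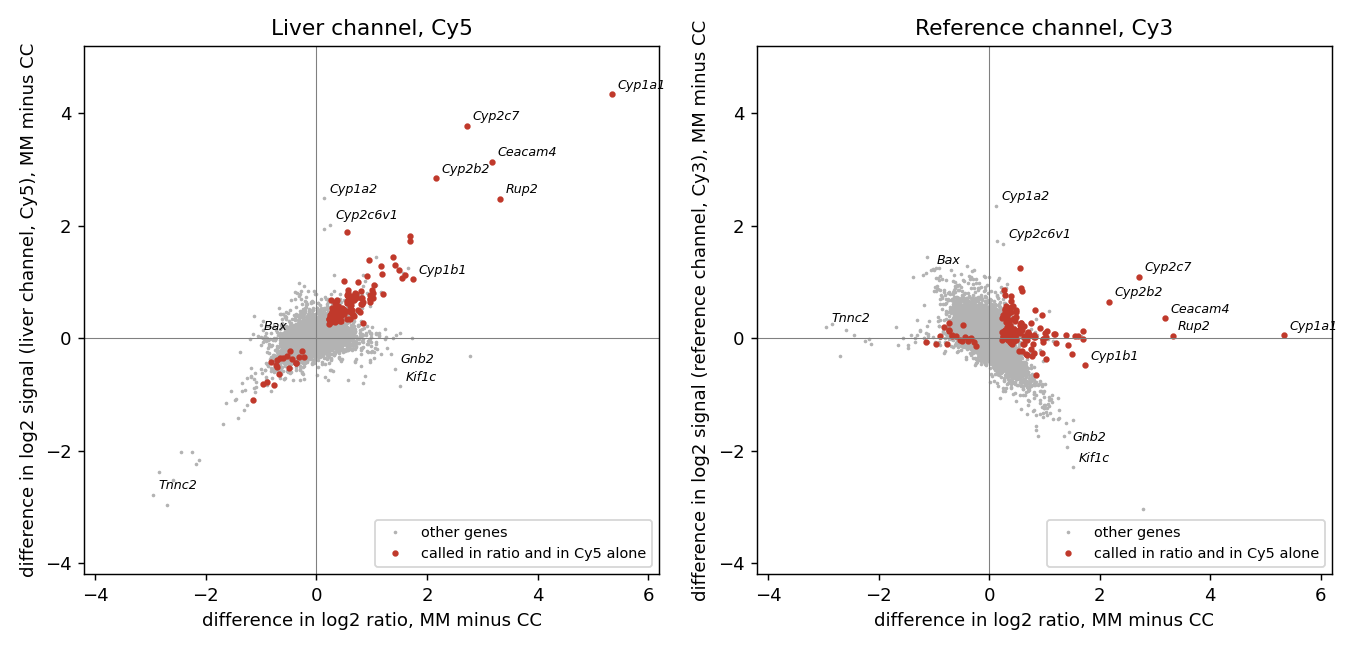
Difference in log2 ratio between MM and CC for each of the 12639 genes tested (horizontal) against the difference in the liver channel (left) and in the reference channel (right), with the 156 genes called in ratio and Cy5 alone in red. Cyp1a1, Ceacam4, Cyp2c7 and Cyp2b2 lie far up in Cy5, while Kif1c and Gnb2 lie low in the reference and Cyp1a2 and Cyp2c6v1 lie high in both channels.

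Among genes with a symbol, the largest falls in the ratio were those of muscle genes, and their size rested on CC 1 and CC 2. Tnnc2, a troponin of fast muscle, was at 4.47, 4.52, -0.38 and -0.44 in CC and -0.75, -1.16, -1.01 and -0.73 in MM. Its difference was -2.96 ± 0.87 (adjusted p = 0.0265) with all arrays and -0.50 (0.0332) without CC 1 and CC 2. It had no call without CC 1, CC 2, MM 2 or MM 4 in turn, at -3.02 to -2.13 (adjusted p = 0.0506 to 0.0866). The slow muscle troponin Tnnt1, at 4.28, 4.64, 1.59 and 1.15 and 0.84, 0.89, 0.82 and 0.61, went from -2.13 ± 0.56 to -0.58 (0.0261). CC 3 and CC 4 still lay above the 4 MM arrays for both genes.

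The fatty acid carrier Fabp3 went from -1.25 ± 0.38 to -0.22, the calcium-binding Hrc from -1.25 ± 0.35 to -0.31, the actin regulator Lmod2 from -1.18 ± 0.37 to -0.15 and the small heat shock gene Cryab from -1.10 ± 0.36 to -0.11 when CC 1 and CC 2 were left out, with adjusted p of 0.328, 0.249, 0.463 and 0.517. Each also had no call in several fits that left out 1 array, CC 1 and CC 2 among them: Fabp3 also without MM 1, MM 2 or MM 4, at -1.23 to -0.88 (adjusted p = 0.0592 to 0.101), and Hrc also without MM 3 or MM 4, at -1.23 to -0.90 (adjusted p = 0.0504 to 0.0749). Lmod2 and Cryab had none without any of MM 1 to MM 4 either, at -1.21 to -0.82 (adjusted p = 0.0561 to 0.122) and -1.15 to -0.73 (adjusted p = 0.0633 to 0.137). In Cy5 alone none of these 6 genes was called. The median of the 12 muscle markers tested was -1.77 with all arrays and 0.00288 without CC 1 and CC 2, and that of 7 exocrine pancreas markers -1.48 and -0.02. These members passed the brightness filter in part through arrays where they were high, so the medians are descriptions.

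**Figure D5:**
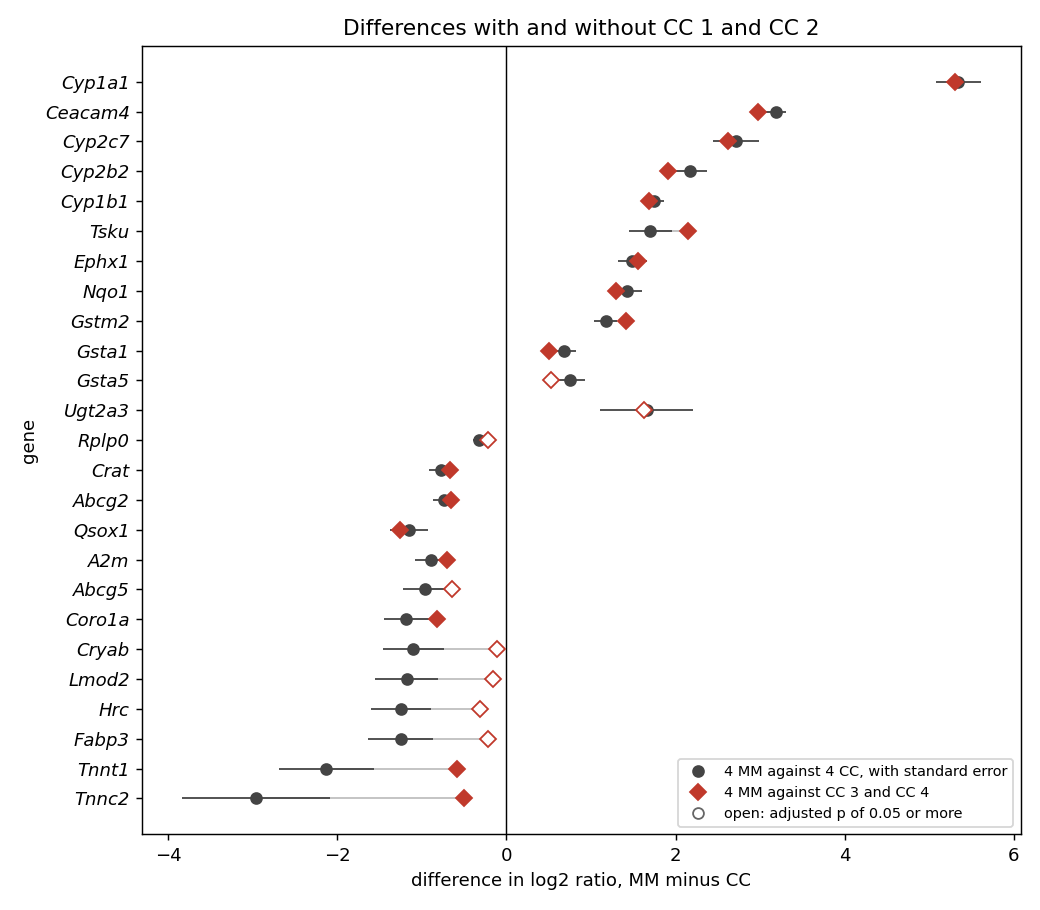
Difference in log2 ratio between MM and CC with all arrays (circles, with standard error) and with CC 1 and CC 2 left out (diamonds), filled where the adjusted p is below 0.05. The receptor targets stay near their value, 5.34 and 5.31 for Cyp1a1, while the muscle genes at the foot move towards 0, Tnnc2 from -2.96 to -0.50.

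Pups that stayed with their own mothers gave a second, separate estimate of the mixture difference, on other arrays of the same 2 slides. In M against C, limma called 2467 genes (19.5%). The same differences were 5.29 for Cyp1a1, 3.32 for Ceacam4, 2.34 for Cyp2c7, 2.76 for Cyp2b2 and 1.52 for Cyp1b1, beside 5.34, 3.18, 2.72, 2.17 and 1.74 in the cross-fostered pups. Tnnc2 and Tnnt1 were at -0.54 and 0.07, Qsox1 at -1.01, Crat at -0.39 and Prom1 at -0.09. The test of the difference between the 2 comparisons called 0 genes (0%) with limma, and 379 (3%) had an unadjusted p below 0.05. For Cyp1a1 the difference of differences was 0.05 ± 0.38, for Cyp2b2 -0.59 ± 0.29 and for Akap5 0.61 ± 0.31, each with an adjusted p of 0.999, which does not show that the mixture acted alike in both. Both comparisons share the slides, so a slide difference would enter both.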

How the data were processed

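Per the file headers, the authors scanned 2-colour Agilent arrays and read them with Agilent Feature Extraction 11.0.1.1. For each array they deposited, by channel, median spot intensity and median local background intensity, along with a log10 ratio that the software had corrected for background and dye. A second deposited table, of the whole series, has log2 ratios whose normalization is not given in the sources used here. Per array it correlated at 0.996 to 0.997 with the ratios computed here, in the same direction, with column medians of -0.0487 to -0.0371.

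Median rather than mean spot intensities, which the analysis had planned on, were used because they are what the files hold. They were background-corrected (normexp, offset 50) and normalized within arrays by loess, with control spots at weight 0 and outlier spots left out. Probes well above background in Cy5 on at least 3 of 4 arrays of a group were kept (13920 of 30367), the brightest per gene. A gene bright in a single group only could thus enter the counts of list members. Probes were named through RefSeq accessions and the gene list of the GRCr8 assembly, giving a symbol to 18005 probes with no symbol for 12362. limma 3.58.1 in R 4.3.3 fitted group means over all 16 arrays, with 12 residual degrees of freedom; p-values are two-sided and Benjamini-Hochberg adjusted over all genes. The fit was tested on simulated data. Cy5 and Cy3 alone are log2 intensities after the same background correction and quantile normalization between arrays, fitted likewise.

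The members, 53 lists and tests were chosen with earlier results of these data known. Named genes are the 15 largest rises and falls with an established symbol called in ratio and Cy5, in the same direction without CC 1 and CC 2 and without overlap of arrays; the 5 largest each way called in the ratio but not in Cy5; up to 5 members of each list and all AhR, CAR and PXR members; the 5 with the largest loss without CC 1 and CC 2; and sentinels (Actb was at 0.15 ± 0.11 and Gapdh at -0.19 ± 0.085, without a call). Across the 8 arrays, median spot intensity in Cy5 ran from 84 to 96 over a background of 68 to 72, 46.2 to 53.5% of spots were well above background, none was saturated, and the lowest correlation of an array with its group was 0.968 to 0.983. The number of arrays limits the precision.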

Additional observations from a re-analysis of the deposited data

Results flagged for a closer look

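Among the named genes, 23 of 220 groups of 4 arrays had an array whose gap to its nearest neighbour exceeded Dixon's critical value as a share of the range, where chance gives about 5%. Of these, 14 were on CC 1. CC 1 was lowest in log2 ratio for Cyp2a1 at 6.10 (the other 3 arrays at 6.97 to 6.99), Gsta2 at 5.72 (the other 3 arrays at 7.97 to 8.09), Cyp3a2 at 8.61 (the other 3 arrays at 9.75 to 9.81), Slco1a4 at 3.90 (the other 3 arrays at 4.49 to 4.60), Nr1i2 at 5.01 (the other 3 arrays at 5.40 to 5.45) and Aldh1l1 at 4.61 (the other 3 arrays at 5.42 to 5.48). It was also lowest for Gsta1 at 3.62 (the other 3 arrays at 4.23 to 4.36), Gsta5 at 6.37 (the other 3 arrays at 7.03 to 7.16), Apoa2 at 5.88 (the other 3 arrays at 6.43 to 6.52), Ndufb3 at 1.77 (the other 3 arrays at 2.08 to 2.12) and Alb at 7.13 (the other 3 arrays at 8.87 to 8.93). CC 1 was highest for Aldh3a1 at -2.29 (the other 3 arrays at -3.23 to -3.09), Coro1a at 0.0495 (the other 3 arrays at -1.53 to -1.41) and Actb at -1.33 (the other 3 arrays at -1.86 to -1.78). The reference level of hepatocyte markers and the Cy5 levels of muscle and leukocyte markers were highest on CC 1, and their part in these values was not tested.

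MM 3 stood apart for Vcam1 at 1.59 (the other 3 arrays at 1.78 to 1.81), Fabp3 at -2.91 (the other 3 arrays at -3.33 to -3.26), Pon3 at 5.34 (the other 3 arrays at 5.69 to 5.71), Scap at 0.94 (the other 3 arrays at 1.11 to 1.14), Cyp4a1 at 3.62 (the other 3 arrays at 4.82 to 4.92) and Gdf15 at -0.74 (the other 3 arrays at -0.96 to -0.92). The rest were Por at 0.65 (the other 3 arrays at 0.95 to 0.99) on CC 3, Hmox1 at -0.70 (the other 3 arrays at -0.96 to -0.93) on MM 2 and Rplp0 at -1.10, the lowest of its group, on MM 4.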

How the results depend on the processing

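The 2469 ratio calls became 1480 without CC 1 and CC 2, 1596 with the 8 arrays alone, 603 and 1203 within array rows 1 and 2, 319 in Cy5 alone, 4303 from the log ratio of the scanner software and 5051 with median centring, and were 1793 to 2259 with 1 array left out. The 156 calls shared by ratio and Cy5 became 54 without CC 1 and CC 2 and 101 to 139 with 1 array left out, alternatives chosen after seeing the data. The interaction had 20 calls within array row 1 and 0 in the other alternatives run. Counts with 1 array left out were 6 to 12 for ribosomal protein genes and 3 to 6 for leukocyte markers, which fell, beside 13 and 6. Within array row 1 the counts were 2 PXR and 5 Nrf2 targets higher and 4 ribosomal, 0 respiratory chain and 0 leukocyte genes lower; within row 2, 0 PXR targets, 2 glutathione transferases and 1 of the glucuronosyltransferase list higher and 2 ribosomal genes lower. In Cy5 alone 4 Nrf2 targets were higher and 1 ribosomal, 0 respiratory chain and 0 leukocyte genes lower. Glutathione transferases called higher were 5 without CC 1 and CC 2 and 5 with median centring. Ribosomal genes called lower were 2 without CC 1 and CC 2, 5 with 8 arrays, 2 with the series table, 2 with offset 16 and 32 with median centring, and respiratory chain genes 5, 2, 3 and 26 in those last 4, 14 with array row as a block, 16 with the scanner's ratio and 16 with array weights. With the sample number as a replicate block the calls were 2012 and the ribosomal count 6. Deviations of same-numbered pools correlated at 0.34, 0.05, 0.18 and 0.10, and 3 of 8 arrays matched their own number best. Same-numbered pools also lay in the same array row, so whether the numbers pair the pools cannot be told from these values. Turned in sign in Cy5 alone were Kif1c (-0.85), Gnb2 (-0.54), Marf1 (-0.18), Gdf15 (-0.10), Gulo (-0.0041), Bax (0.042), Cox5b (0.090) and Hmox1 (-0.16), and elsewhere Cryab within row 2 (0.0030) and Apoa2 with the scanner's ratio (-0.10). The cause was not tested. Of 88 named genes called, 77 kept their call with any 1 array left out. Within array row 1, 40 named genes were weaker, by loss of the call or by size, and within row 2, 27. Row 1 held CC 1 and CC 2, and row 2 held CC 3 and CC 4, so the row fits also differ in those pools. Cryab, turned in sign within row 2, had no call there either. Scaling with Aquantile left every ratio as it was by construction, and Cy3 alone, the channel of the reference RNA, was no alternative for the result.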

Other observations

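Several pathways of the liver had no member called between MM and CC with all arrays. Of 12 circadian clock genes, 27 interferon response genes, 10 ketone body genes and 24 genes of fatty acid and triglyceride synthesis, 0 were called by limma in the ratio, where 19.5% of all genes were, with list medians of 0.04, -0.12, -0.05 and -0.06. Without CC 1 and CC 2, 1 interferon response gene was called lower and 1 gene of fatty acid and triglyceride synthesis higher. Hepatocyte markers had 0 calls among 12, and a median of 0.17 in the ratio and 0.01 in Cy5. Without CC 1 and CC 2, 1 hepatocyte marker was called lower and the ratio median was -0.14. The list of metallothionein and heat shock genes gave 3 rises among 20, beside 7.7% of all genes, and 3 without CC 1 and CC 2. The mitochondrial Hspa9 was at 0.51 ± 0.081 and Hspb8 at 0.55 ± 0.10, neither called in Cy5 (0.18 and 0.12). The cholangiocyte marker Epcam rose by 0.64 ± 0.078 in the ratio, with 0.07 in Cy5 and -0.65 in Cy3.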
